A study of Mus musculus with 4 samples.

Results

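The genes described here make cholesterol and fatty acids, or control the SREBP transcription factors that switch those pathways on. They are 33 named mouse genes out of 35275 listed in a table of gene expression, chosen by name from their known roles. RNA was sequenced from lung tumours of Balb/c mice carrying either intact Nrf2 (Nrf2 +/+, 2 libraries, called wild type 1 and 2) or a knockout of both copies (Nrf2 -/-, 2 libraries, called knockout 1 and 2). Every mouse, wild type included, had been given the chemical carcinogen vinyl carbamate at 16 mg/kg, in 2 or 4 doses, and tumours were taken 40 to 44 weeks after the start. Each library is a pool of 3 to 4 tumours, and the labels do not tie a number of doses, weeks or tumours to a library. The labels name no promoter or cell type for the Nrf2 -/- allele, and the pools hold immune and stromal cells as well as epithelium.

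Cells build cholesterol from acetyl-CoA through the mevalonate pathway, then squalene, then a series of sterols, and they build fatty acids from the same acetyl-CoA through malonyl-CoA. SREBP-2, encoded by Srebf2, mainly drives the sterol genes, and SREBP-1c, encoded by Srebf1, mainly drives the fatty acid genes. Both are held in the endoplasmic reticulum by SCAP and the INSIG proteins until sterols run low. In the lung these pathways are known above all from alveolar type 2 cells, which make the lipid of surfactant and from which adenomas of this kind are thought to arise. NRF2 is a regulator of antioxidant and NADPH-producing genes, and fatty acid and sterol synthesis both use NADPH. The comparison of genotypes asks how the RNA of these enzymes differs between tumours with and without Nrf2.

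Read totals worked out from the values were higher for the wild-type libraries (21.66 and 21.22 M reads, where M is 1e6) than for the knockout libraries (17.98 and 16.89 M reads). The targeted gene, Nfe2l2, measured 96.3 and 87.9 FPKM (reads scaled by gene length and library total) with Nrf2 intact but 3.66 and 2.96 FPKM without it, so each library matches its genotype label. Surfactant genes marked the tissue as alveolar. The 11 alveolar type 2 markers had a sum of 114300 FPKM in both wild-type libraries, of 126200 FPKM in knockout 1 and of 111100 FPKM in knockout 2. Most of each sum was Sftpc, at 75159 and 77718 FPKM in wild type 1 and 2 and at 90474 and 76027 FPKM in knockout 1 and 2. In tissue RNA, fewer cells of a type and less RNA per cell cannot be told apart.

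Levels of the members spanned a wide range. The highest were fatty acid enzymes, while 11 of the 33 members, 7 of them among the 10 sterol arm enzymes, lay below the median tested gene. Averaged over the 4 libraries, the highest level was that of Elovl1, which extends very long chain fatty acids, at 737 FPKM, followed by fatty acid synthase Fasn at 367 FPKM, the stearoyl-CoA desaturase Scd1 at 260.4 FPKM and the ATP citrate lyase Acly at 254 FPKM. Fasn lay above 98.4% of the 13147 genes tested, and Scd1 above 97.7%. At the other end stood the squalene epoxidase Sqle at 5.42 FPKM, the sterol reductase Hsd17b7 at 3.12 FPKM and the elongase Elovl6 at 0.857 FPKM. A single member, Elovl6, missed the expression filter of at least 1 FPKM in 2 or more libraries, which left 32 members tested. Reads per library of a tested member ran from 81 for Hsd17b7 in knockout 1 to 42146 for Fasn in wild type 1, so counting error was small for most of them.

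**Figure D1:**
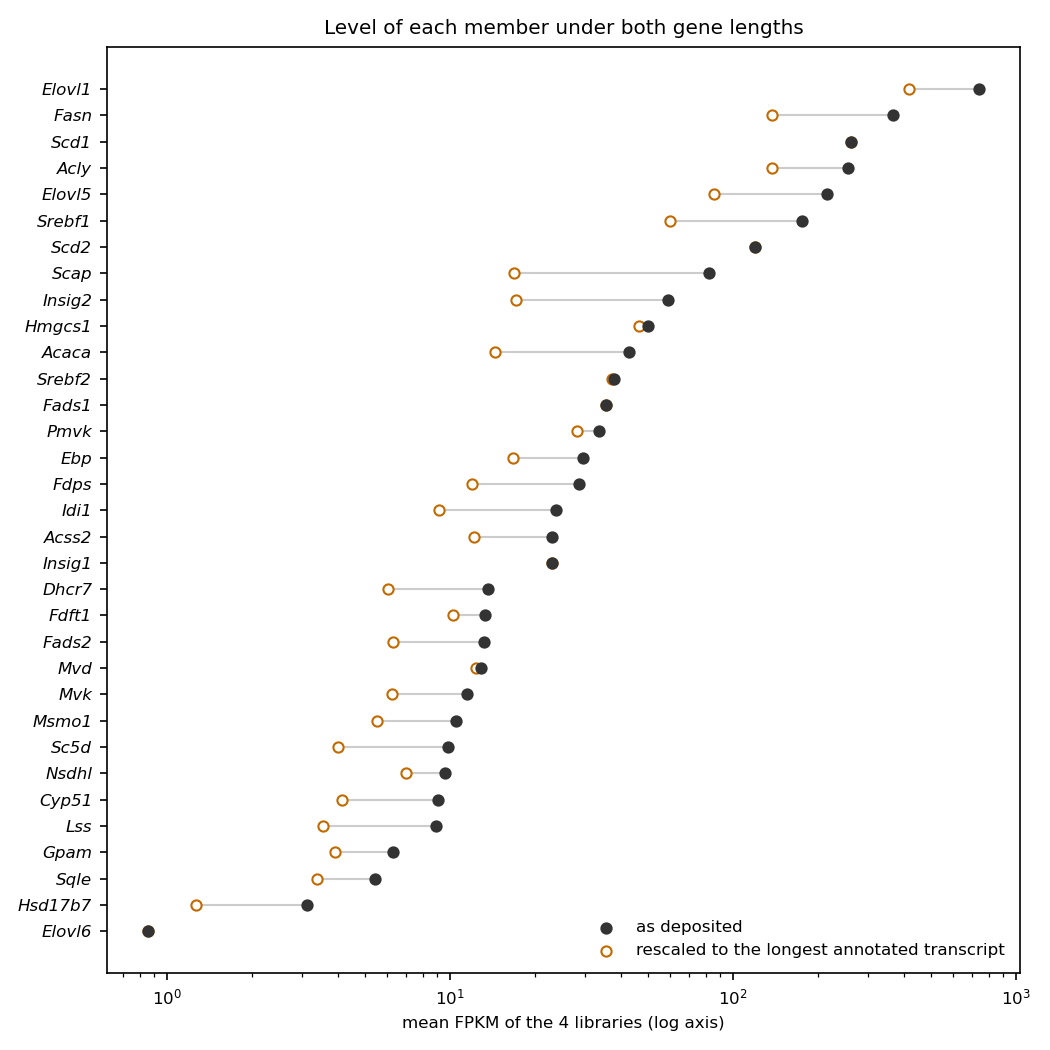
Mean FPKM of the 4 libraries (log axis) for each of the 33 members, as deposited (filled) and rescaled to the longest annotated transcript of the gene (open). Elovl1 is highest under both lengths, while Fasn goes from 367 to 138 FPKM and Scd1 hardly moves, from 260.4 to 260.6 FPKM.

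Levels of different genes depend on the gene length used for each. The length that fits the deposited Fasn values is 3773 bases, and the longest annotated Fasn transcript has 10050. Rescaled to the longest transcript, Elovl1 stayed first, Scd1 moved from the third place to the second, and the SREBP escort protein gene Scap moved from place 8 to place 14. The FPKM ratio of 1 gene between libraries does not depend on that length. Fold changes on the log2(FPKM + 1) scale do for low genes, through the added 1, as does the filter.

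Members shared a short promoter sequence that the choice of genes did not use. Of the 33 genes, 27 have a RefSeq promoter window on GRCm38.p6, running from 250 bases before an annotated start to 50 after it, with 37 windows in all because some genes have several starts. A gene counts as matched if any of its windows holds the letters. The letters CCAAT, bound by the factor NF-Y that often works beside SREBP, were present on either strand in 23 of these 27 genes (85.2%), against 42.1% of the 10071 tested genes with a window and 41.1% of all 27025 genes with one. Of the 47 matches, 27 lay between 120 and 20 bases before the start. The core of the sterol regulatory element to which SREBPs bind, TCACNCCAC on either strand, was found in 1 of the 27, Hmgcs1, and in 1.44% of all genes. The longer form of this element, in which an A comes just before that core, was found in 0 of the 27 and in 0.27% of all genes, which says only that these letters are not in these windows. The core of the antioxidant response element, TGACNNNGC, to which NRF2 binds, was matched in 5 of the 27 (Acss2, Dhcr7, Hsd17b7, Mvk and Pmvk), or 18.5%, against 17.2% of tested genes. These matches are letters in a window and not measured binding.

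The stretches below are shown for the members with the lowest p-values that have a window, for Hmgcs1 as the single match to the sterol element core, and for Acss2 as a match to the antioxidant element core. Each runs 5′ to 3′ on the gene's own strand and stops before the annotated start, and capitals mark the matched motifs (CCAAT or its reverse ATTGG, the sterol core in Hmgcs1, the antioxidant core in Acss2).
Fasn, chr11:120824590-120824649, minus strand: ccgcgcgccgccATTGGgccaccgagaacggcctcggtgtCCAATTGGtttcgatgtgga
Elovl5, chr9:77917282-77917363, plus strand: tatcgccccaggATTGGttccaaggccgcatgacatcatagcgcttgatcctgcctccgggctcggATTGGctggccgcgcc
Insig1, chr5:28071184-28071212, plus strand: cgccctcctcccATTGGctccggcggcct
Gpam, chr19:55127296-55127324, minus strand: ctgaagctttcgATTGGctgatcaagctc
Hmgcs1, chr13:119690102-119690322, plus strand: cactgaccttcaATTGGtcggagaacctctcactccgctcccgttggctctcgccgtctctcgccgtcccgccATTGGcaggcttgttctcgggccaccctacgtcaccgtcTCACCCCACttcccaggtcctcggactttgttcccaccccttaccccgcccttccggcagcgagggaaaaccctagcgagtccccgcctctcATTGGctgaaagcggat
Acss2, chr2:155517924-155517947, plus strand: agcggtttttgcTGACCCCGCccc
In Fasn the last pair of boxes overlaps, so that CCAAT on one strand and ATTGG on the other share letters. Fasn, Elovl5 and Hmgcs1 carry several boxes before the start, whereas Insig1 and Gpam carry 1 each. Acss2 has an ATTGG too, which begins 73 bases before the RefSeq start, past the end of the stretch shown.

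No member passed the test between genotypes. Of 32 tested members, 0 were called at a limma adjusted p under 0.05, where 0.114% of all tested genes were (15 of 13147, 10 higher and 5 lower, or 6 higher and 5 lower after quantile normalization). With limma-voom on the recovered reads 0 members were called as well. The lowest adjusted p among the members was 0.236, for Insig1. At an unadjusted limma p under 0.05 there were 5 members, or 15.6%, against 15.4% of all tested genes. Gpam and Insig1 had higher values in knockout tumours, as did 8.36% of all tested genes at that p, and Fasn, Fads1 and Elovl5 lower values, as did 7.01%. Log2 fold changes of the members had a median of -0.09, against -0.00 over all tested genes, and of -0.055 without wild type 1. The median of the absolute size was 0.15 in both. The sign was negative in 22 of the 32 members and in 50.8% of all tested genes.

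Members more often lay apart between genotypes on the lower side than on the higher side. Both knockout libraries lay below both wild-type libraries for 13 of the 32 members (40.6%), against 25.4% of all tested genes, and above them for 4 (12.5%), against 22.7%. In all, 48.1% of tested genes lay apart in 1 direction or the other. These shares describe the list and were not tested. The 95% limma intervals, not adjusted for the number of genes, kept within a doubling or halving for 32 of 32 members, as they did for 91.5% of all tested genes. The interval of Fasn reached furthest down, to -0.9998 on the log2 scale, almost to a halving. Intervals within 1.5-fold either way were found for 14 of the 16 cholesterol enzymes and for 2 of the 11 tested fatty acid and glycerolipid enzymes. After quantile normalization the log2 fold change of Fasn was -0.61 ± 0.23 (SE), and intervals were not counted under that setting.

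**Figure D2:**
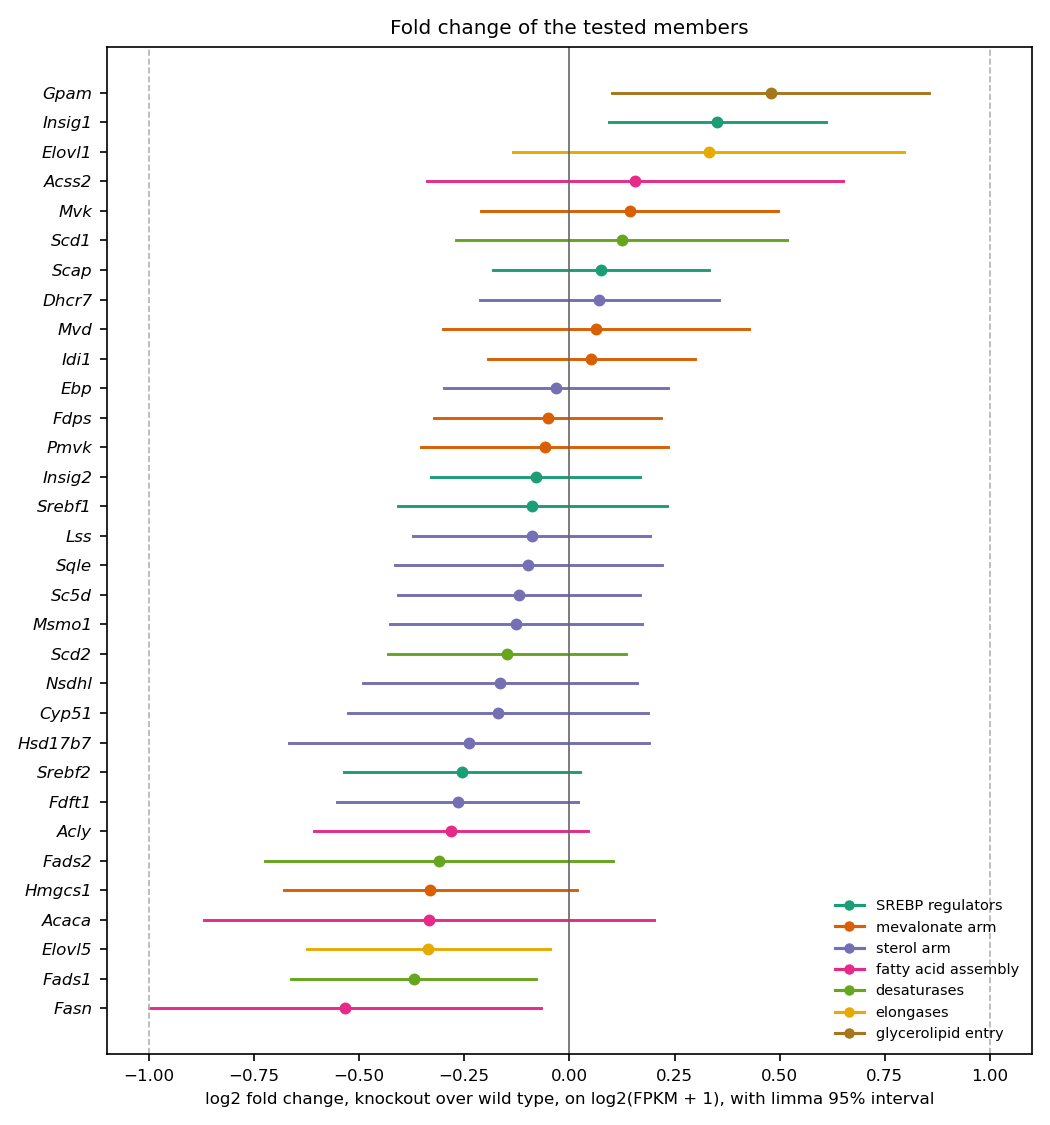
Log2 fold change, knockout over wild type, on the log2(FPKM + 1) scale for the 32 tested members, with limma 95% intervals as bars and dashed lines at a doubling and a halving. Fasn is lowest at -0.53 and Gpam highest at 0.48, and 5 intervals do not include 0.

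**Figure D3:**
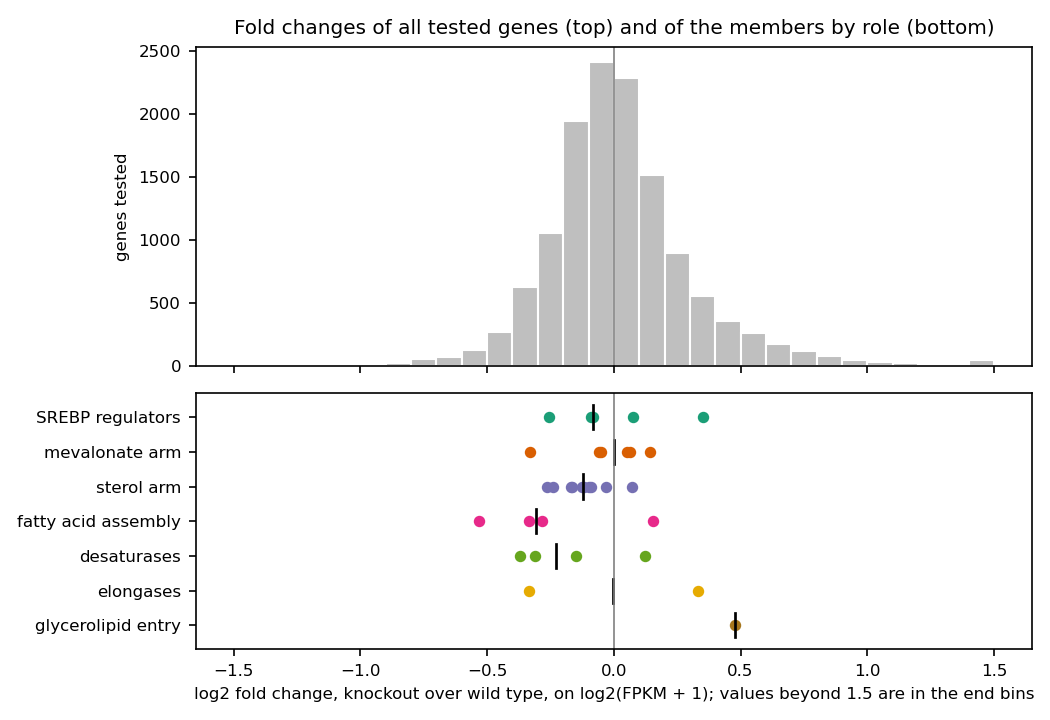
Top, number of the 13147 tested genes in each bin of log2 fold change (knockout over wild type, log2(FPKM + 1) scale), with values beyond 1.5 placed in the end bins. Bottom, the 32 tested members by role, with a black bar at each role's median, which runs from -0.31 for fatty acid assembly to 0.48 for Gpam alone.

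Among the regulators, the transcription factor genes gave no call and Insig1 was the one with the lowest p-value. Srebf1 (chromosome 11, 60199089 to 60222581) stood at 168 and 192 FPKM in wild type 1 and 2 and at 181 and 158 FPKM in knockout 1 and 2. The groups overlapped, and its log2 fold change of -0.09 ± 0.13 (SE) became 0.01 without wild type 2 or without knockout 2. Srebf2 (chromosome 15, 82147181 to 82205379) stood at 41.3 FPKM in both wild-type libraries and at 37.2 and 31.9 FPKM in knockout 1 and 2. Both knockout values were lower, with a log2 fold change of -0.26 ± 0.12 (SE, limma adjusted p = 0.365). It was -0.15 without knockout 2 and -0.36 without knockout 1.

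Insig1 (chromosome 5, 28071363 to 28078662) encodes the retention protein that is itself an SREBP target. It stood at 19.8 and 20.04 FPKM in wild type 1 and 2 and at 26.9 and 24.6 FPKM in knockout 1 and 2. Both knockout libraries were higher, and the log2 fold change was 0.35 ± 0.11 (SE; limma adjusted p = 0.236). Its relative Insig2 stood at 60.4 and 61.0 against 55.1 and 59.7 FPKM, a log2 fold change of -0.08 ± 0.10 (SE). The ratio of Insig1 to Insig2 in FPKM, a pair chosen after the values were seen, was 0.328 and 0.329 in wild type and 0.487 and 0.413 in knockout tumours. Scap, which escorts SREBPs out of the endoplasmic reticulum, stood at 78.3 and 81.1 against 87.6 and 80.6 FPKM, and the groups overlapped.

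In the mevalonate arm, which makes farnesyl diphosphate, 0 of 6 enzymes were called and their log2 fold changes ran from -0.33 to 0.14. Hmgcs1 (chromosome 13, 119690379 to 119708260), the cytosolic HMG-CoA synthase, stood at 62.9 and 48.7 FPKM in wild type 1 and 2 and at 44.7 and 43.0 FPKM in knockout 1 and 2. Wild type 1 was well above the other 3 libraries. The log2 fold change was -0.33 ± 0.14 (SE, limma adjusted p = 0.349), -0.15 without wild type 1 and -0.51 without wild type 2. Mevalonate kinase, Mvk, stood at 10.2 and 11.5 against 13.5 and 10.8 FPKM, a difference of 0.14 on the log2 scale that went to -0.01 without knockout 1. The other 4 enzymes, Pmvk, Mvd, Idi1 and Fdps, lay between -0.06 and 0.06. In this arm the direction was mixed: 3 of 6 log2 fold changes were negative, that of Hmgcs1 among them, and 3 positive.

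In the sterol arm, which turns farnesyl diphosphate into cholesterol, 0 of 10 enzymes were called, and 9 of 10 log2 fold changes were negative, all of them small (median -0.12, lowest -0.27). Fdft1 (chromosome 14, 63145150 to 63179578), the squalene synthase that commits the pathway to sterols, stood at 13.7 and 15.4 FPKM in wild type 1 and 2 and at 12.3 and 11.6 FPKM in knockout 1 and 2. Both knockout values were lower (log2 fold change -0.27 ± 0.12 SE; limma adjusted p = 0.357). Sqle (chromosome 15, 59315077 to 59331192), which adds oxygen to squalene and is a rate-limiting step, stood at 5.96 and 5.32 against 5.38 and 5.02 FPKM, and the groups overlapped.

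Of the enzymes after squalene epoxidation, 6 of 8 had their highest value in wild type 1. The lanosterol synthase Lss stood at 9.55 and 8.89 FPKM in wild type 1 and 2 and at 8.49 and 8.71 FPKM in knockout 1 and 2. The lanosterol demethylase Cyp51 stood at 10.6 and 8.73 against 9.16 and 7.77 FPKM. The methyl oxidase Msmo1 stood at 11.7 and 10.2 against 9.67 and 10.2 FPKM. Wild type 1 was the highest library for these 3 genes. The groups overlapped for Cyp51, and for Msmo1 wild type 2 and knockout 2 were practically level (10.217 and 10.214 FPKM). Nsdhl, which removes the C4 carbon with its partners, stood at 10.7 and 9.63 against 8.24 and 9.74 FPKM. Hsd17b7 stood at 3.89 and 3.03 against 2.42 and 3.14 FPKM, a log2 fold change of -0.24. It was -0.10 without wild type 1 or without knockout 1 and -0.08 with a pseudocount of 10. Without wild type 2 or without knockout 2 it was -0.38. Sc5d, the lathosterol desaturase, stood at 10.8 and 9.70 against 9.21 and 9.47 FPKM. Wild type 1 was highest in these 3 as well. Ebp, the sterol isomerase, and Dhcr7, the reductase that ends the Kandutsch-Russell route, were at log2 fold changes of -0.03 and 0.07 with overlapping groups.

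Fatty acid assembly held the lowest log2 fold change, that of Fasn, and its spread within wild type was wide. Fasn (chromosome 11, 120805846 to 120824547) makes palmitate and stood at 516 and 358 FPKM in wild type 1 and 2 and at 293 and 299.7 FPKM in knockout 1 and 2. Both knockout libraries lay below both wild-type libraries and close to each other, with means of 437 ± 112 and 296 ± 4.55 FPKM (SD, n = 2 each). The log2 fold change was -0.53 ± 0.19 (SE; limma adjusted p = 0.281). It was -0.27 without wild type 1 and -0.80 without wild type 2. Reads of Fasn made up 0.195% and 0.135% of the totals in wild type 1 and 2 and 0.111% and 0.113% in knockout 1 and 2, counted at the shortest gene length that fits, so that these shares may be too low.

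Acly (chromosome 11, 100476353 to 100528000), which splits citrate into acetyl-CoA in the cytosol, stood at 304 and 254 FPKM in wild type 1 and 2 and at 228 FPKM in both knockout libraries. Its groups did not overlap (log2 fold change -0.28 ± 0.13 SE, limma adjusted p = 0.387). The difference was -0.15 without wild type 1 and -0.41 without wild type 2. Acaca (chromosome 11, 84129672 to 84401651), the acetyl-CoA carboxylase that makes malonyl-CoA, stood at 57.2 and 38.8 against 32.0 and 43.2 FPKM. Its groups overlapped, and the log2 fold change of -0.33 ± 0.22 (SE) was -0.06 without wild type 1 and -0.12 without knockout 1. It was -0.61 without wild type 2 and -0.54 without knockout 2. Acss2, which makes acetyl-CoA from acetate, stood at 24.9 and 18.3 against 20.3 and 28.1 FPKM. Its log2 fold change of 0.16 turned to -0.06 without wild type 2 and to -0.07 without knockout 2.

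**Figure D4:**
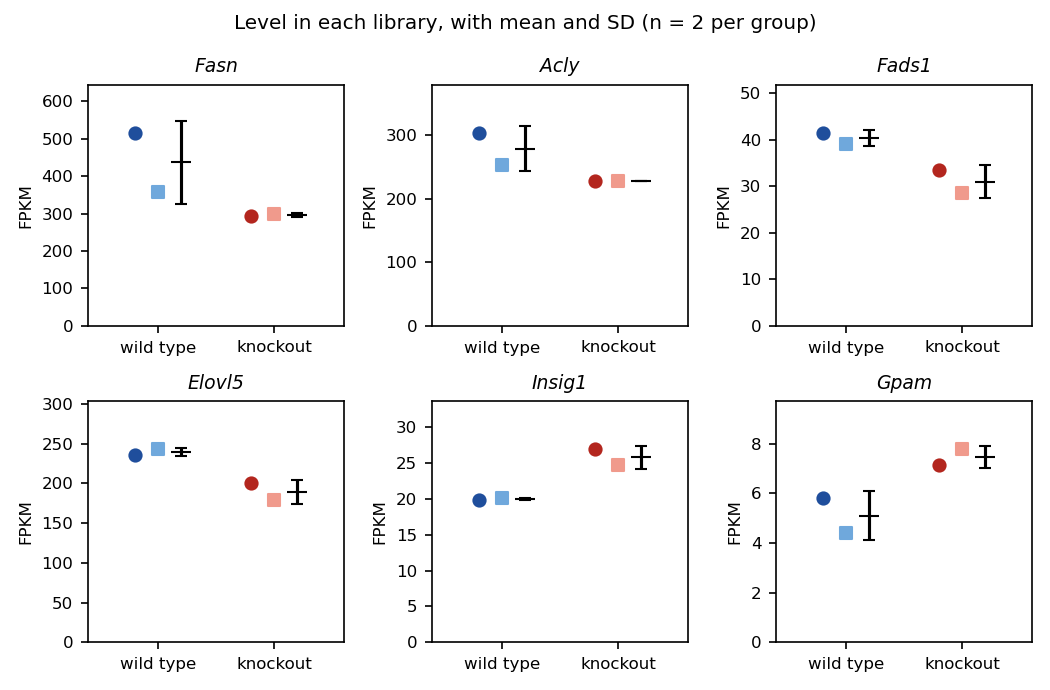
FPKM in each library (axes from 0) for Fasn, Acly, Fads1, Elovl5, Insig1 and Gpam, with wild type in blue, knockout in red, replicate 1 as circles and replicate 2 as squares, and the mean and SD of each group (n = 2) in black. Apart from Acly, these are the members with an unadjusted limma p under 0.05, so separate groups follow in part from the choice. The groups do not overlap for any of the 6 genes, as for 48.1% of all tested genes. For Fasn the values in wild type are 516 and 358 FPKM.

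Of the 4 desaturases, which place double bonds, 3 had both knockout libraries below both wild-type libraries (25.4% of all tested genes did), with a thin gap for Fads2 and Scd2. Fads1 (chromosome 19, 10182888 to 10196877), the delta-5 desaturase for polyunsaturated fatty acids, stood at 41.5 and 39.0 FPKM in wild type 1 and 2 and at 33.5 and 28.5 FPKM in knockout 1 and 2 (log2 fold change -0.37 ± 0.12 SE; limma adjusted p = 0.253). Its neighbour Fads2 (chromosome 19, 10062765 to 10101746), the delta-6 desaturase, lies 81141 bases away on the other strand. It stood at 12.3 and 17.1 against 12.2 and 10.9 FPKM, so that wild type 2 was apart and the groups were separated by little (log2 fold change -0.31 ± 0.17 SE). Without wild type 2 the log2 fold change was -0.09, and without wild type 1 it was -0.53.

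The stearoyl-CoA desaturases Scd1 and Scd2 make monounsaturated fatty acids and lie 87590 bases apart on chromosome 19 (44394455 to 44407879 and 44293674 to 44306864). Scd1 stood at 249 and 246 FPKM in wild type 1 and 2 and at 311 and 234 FPKM in knockout 1 and 2. The knockout libraries lay on either side of the wild-type pair, and the log2 fold change of 0.12 ± 0.16 (SE) turned to -0.08 without knockout 1. Scd2 stood at 118 and 134 against 111 and 116 FPKM (log2 fold change -0.15 ± 0.12 SE). The difference was -0.05 without wild type 2 and -0.24 without wild type 1. The genes are similar in sequence, and how reads shared between them were counted is not given in the sources used here. The ratio of Fasn to Scd1 in FPKM, chosen after the values were seen, was 2.07 and 1.45 in wild type and 0.942 and 1.28 in knockout tumours.

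The elongases went different ways. Elovl5 (chromosome 9, 77917364 to 77984519), which extends polyunsaturated chains, stood at 235 and 243 FPKM in wild type 1 and 2 and at 200.3 and 179 FPKM in knockout 1 and 2 (log2 fold change -0.34 ± 0.12 SE; limma adjusted p = 0.276). Elovl1 (chromosome 4, 118428093 to 118432953) stood at 636 and 659 against 957 and 695 FPKM. Knockout 1 was far above the other 3 libraries, and the log2 fold change of 0.33 ± 0.19 (SE) was 0.10 without it and 0.56 without knockout 2. Elovl6, which extends palmitate and was below the filter, stood at 0.939 and 1.09 against 0.692 and 0.706 FPKM, from 121 and 138 against 74 and 71 reads. Gpam (chromosome 19, 55067268 to 55127238), the mitochondrial acyltransferase that starts glycerolipid synthesis, stood at 5.80 and 4.41 against 7.14 and 7.77 FPKM. Both knockout libraries were higher, with the highest log2 fold change of the members, 0.48 ± 0.15 (SE; limma adjusted p = 0.253). It ranged from 0.32 without wild type 2 to 0.64 without wild type 1, and was 0.21 with a pseudocount of 10.

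The libraries themselves differed in how many members they held at the extremes. Wild type 1 was the highest of the 4 libraries for 13 of the 33 members, wild type 2 for 9, knockout 1 for 8 and knockout 2 for 3. Knockout 2 was the lowest for 13 members and knockout 1 for 12, against 5 for wild type 1 and 3 for wild type 2. The same counts were not made over all genes. Relative to each gene's mean over the 4 libraries, fatty acid assembly genes had a median of 0.36 on the log2(FPKM + 1) scale in wild type 1 and of -0.05, -0.21 and -0.05 in wild type 2, knockout 1 and knockout 2. The sterol arm had a median of 0.12 in wild type 1 and of -0.01, -0.07 and -0.03 in the others. In both arms wild type 1 had the highest median. The desaturases had medians of -0.04, 0.16, -0.08 and -0.19 in the same order, with wild type 2 highest. Over the 11 tested fatty acid and glycerolipid enzymes together the medians were 0.14 and 0.00 in wild type 1 and 2 and -0.09 and -0.14 in knockout 1 and 2. For all tested genes the medians were -0.002 and 0.012 in wild type 1 and 2 and -0.023 and 0.015 in knockout 1 and 2.

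**Figure D5:**
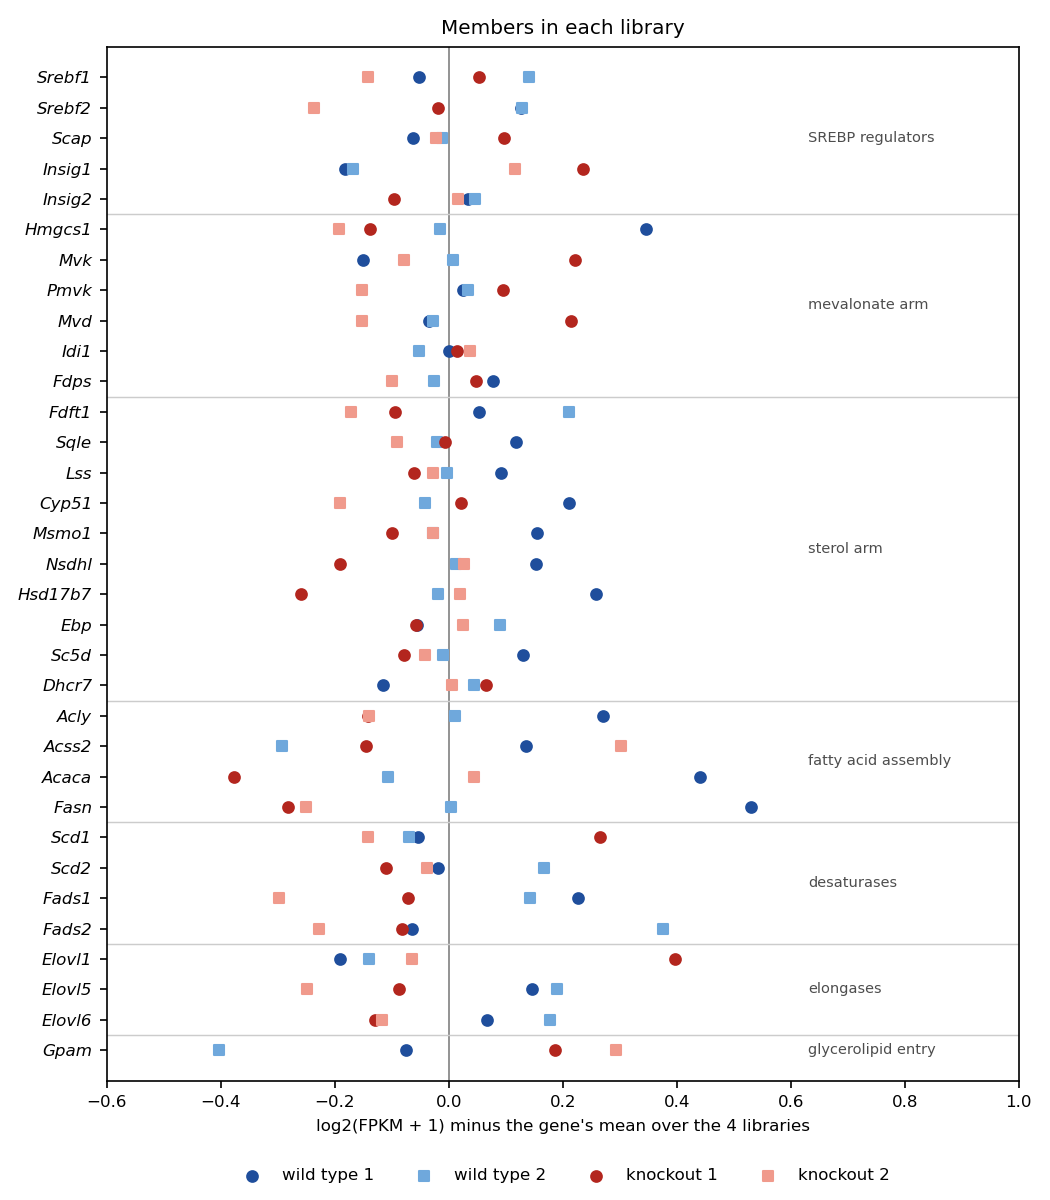
Each of the 33 members in each library, as log2(FPKM + 1) minus the gene's mean over the 4 libraries, grouped by role, with wild type in blue, knockout in red, replicate 1 as circles and replicate 2 as squares. Wild type 1 lies far to the right for Fasn, Acaca, Hmgcs1 and Acly, and knockout 1 for Elovl1, Scd1, Mvk and Mvd.

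Other genes of the same metabolism, 45 in a separate list, gave 0 calls among 37 tested, and 4 (10.8%) had an unadjusted limma p under 0.05, against 15.4% of all tested genes. Both knockout libraries lay above both wild-type libraries for 8 of them (21.6%, against 22.7% of all tested genes) and below for 11 (29.7%, against 25.4%). Ch25h (chromosome 19, 34473778 to 34475164), which makes 25-hydroxycholesterol, an oxysterol that holds SREBPs back through INSIG, came nearest to a call. It stood at 1.74 and 2.20 FPKM in wild type 1 and 2 and at 6.59 and 5.44 FPKM in knockout 1 and 2 (log2 fold change 1.24 ± 0.16 SE; limma adjusted p = 0.0799). Cyp27a1, the sterol 27-hydroxylase, stood at 4.88 and 4.34 against 7.19 and 7.11 FPKM (limma adjusted p = 0.173). In both genes the knockout libraries were well apart from the wild-type libraries.

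Acsl3, an acyl-CoA synthetase of lipid droplets, stood at 38.7 and 37.9 FPKM in wild type 1 and 2 and at 28.3 and 27.5 FPKM in knockout 1 and 2 (log2 fold change -0.44 ± 0.10 SE; limma adjusted p = 0.162). Mbtps2, the site-2 protease that releases SREBPs, was at a log2 fold change of -0.32 ± 0.12 (SE), with both knockout libraries lower. Acat2, the acetoacetyl-CoA thiolase at the head of the mevalonate pathway, was at 0.31 ± 0.20 (SE) with overlapping groups, and the cholesterol exporter Abca1 at -0.31 ± 0.20, also overlapping. Thrsp, a lipogenic regulator, stood at 1.59 and 0.738 against 1.61 and 3.15 FPKM, so that wild type 1 and knockout 1 were nearly equal. Me1, the malic enzyme that supplies NADPH and a known NRF2 target, was named after its values were seen. It stood at 213 and 200.02 FPKM in wild type 1 and 2 and at 168 and 309.7 FPKM in knockout 1 and 2, with the knockout libraries on either side.

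Markers of other cells moved between the same libraries. The median log2 fold change of the 11 alveolar type 2 markers was -0.04, and 0 were called. In both knockout libraries 5 of them were lower and 2 higher, against 25.4% and 22.7% of all tested genes. At an unadjusted limma p under 0.05 there were 1 higher and 2 lower, and log2 fold changes ran from -0.55 for Lpcat1 to 0.91 for Napsa. Their per-library medians were 0.11, -0.03, -0.05 and -0.05 in wild type 1, wild type 2, knockout 1 and knockout 2, with wild type 1 highest, as for the sterol arm. Of 6 neutrophil markers, 6 were higher in both knockout libraries and 3 were called, where 22.7% of all tested genes were higher and 0.114% called. The 6 markers summed to 26.3 and 28.4 FPKM for wild type against 99.04 and 114 FPKM for knockout. The 9 alveolar macrophage markers summed to 959 and 848 against 1004 and 1637 FPKM, with Chil3 the largest part (526 and 436 against 487 and 1029 FPKM). Of the 9, 3 were higher and 3 lower in both knockout libraries. Marco was among the lower ones, at 20.9 and 15.4 against 3.78 and 1.34 FPKM (log2 fold change -2.50 ± 0.34 SE). Pparg was lower as well, at 10.4 and 10.5 against 6.72 and 6.56 FPKM. T and B cell markers summed to 26.9 and 28.2 against 45.15 and 41.5 FPKM, with Cd79b the largest part in wild type (15.9 and 18.95 against 20.3 and 16.3 FPKM). Of the 5 tested, 4 were higher in both knockout libraries, and the groups overlapped for Cd79b. Club cell markers, mostly Scgb1a1, summed to 1805 and 786 against 2131 and 3199 FPKM, and fibroblast markers to 330.5 and 225 against 324 and 530.2 FPKM. Endothelial markers summed to 111 and 56.6 against 87.3 and 142 FPKM, and erythroid markers to 246.5 and 489.6 against 1194 and 1093 FPKM. Of the markers in these last 6 lists, from macrophage to erythroid, 0 were called. Of the macrophage markers, 3 were higher and 2 lower at an unadjusted limma p under 0.05, and 14 T and B, club, fibroblast, endothelial and erythroid markers also had such a p, all higher in knockout tumours. The part of these cells in the members' values was not tested.

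Fat tissue is rich in Fasn, Acly and Scd1. Of 8 adipocyte markers, Cfd and Lep were listed at 0 in all 4 libraries, Adipoq was listed at 0 in 3 of them and stood at 0.0504 FPKM in wild type 1, and Plin1 did not exceed 0.219 FPKM. Cidec, below the filter, stood at 0.282 and 0.247 FPKM in wild type and at 1.12 and 0.568 FPKM in knockout tumours, higher in both. The whole list came to 7.71 and 7.68 FPKM with Nrf2 intact and 10.9 and 12.7 FPKM without it, nearly all of it from Lipe, a lipase that other cells also express. Lipe, the single adipocyte marker tested, was higher in both knockout libraries (log2 fold change 0.51 ± 0.14 SE; limma adjusted p = 0.2). Of 10 cell division genes, 0 were called, and their sums were 44.1 and 39.9 against 41.6 and 38.7 FPKM.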

How the data were processed

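The deposited table gives 1 FPKM value per gene and library. The unit was read from the values, which are whole reads times a constant of the library over a whole-number length. The submitters' processing notes name mm10, TopHat2 and DESeq2, without roles or versions. How reads were counted, with which annotation and filters, and whether strand was used is not given in the sources used here, so reads from overlapping genes cannot be told apart. Symbols matched 34490 of 35275 identifiers in GENCODE M21 (GRCm38, the assembly of mm10), and coordinates are from it. Whole reads were recovered for 21599 of 21601 genes above 0, at an annotated length for 5488 and otherwise at the smallest length that fitted, which may undercount reads. The genotype contrast was fitted to log2(FPKM + 1) by limma (3.58.1, under R 4.3.3) with its trend option, and p-values were adjusted by Benjamini-Hochberg over the 13147 genes that reached 1 FPKM in 2 or more libraries. The fit was tested on simulated data, but only with fold changes larger than those of the members. Changes of the members' size were not covered. The fit has 2 residual degrees of freedom, with 4.12 more from the prior. Such fold changes understate changes of low genes. The p-values weigh the genotype difference against the spread between 2 pooled libraries a group, moderated by the spread of other genes. They do not measure the spread between single tumours or mice. Members were described by counts beside those of all genes. Values were printed in full for the 5 regulators, 7 committed steps and the 14 further members with the largest fold changes, and for 8 other pathway genes, of which 1 is not reported here. Members and lists were chosen with earlier results of these data known.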

Additional observations from a re-analysis of the deposited data

How the results depend on the processing

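The count of 0 members called held under all alternatives run: quantile normalization, no intensity trend, no filter, a filter at 5 FPKM, pseudocounts of 0.1 and 10, limma-voom on recovered reads, an adjusted p under 0.1, the replicate block, and leaving out each library with the tested genes kept. Members at an unadjusted p under 0.05, 2 higher and 3 lower in the report, were as many with limma-voom, 1 and 2 with the replicate block, 2 and 2 without a filter and, leaving out a library, 0 and 5 (wild type 2), 1 and 1 (wild type 1), 1 and 3 (knockout 1) or 2 and 1 (knockout 2). Calls over all genes, 15 in the report, were 65 at an adjusted p under 0.1, 8 with limma-voom, 1 without a filter and 10 to 221 with 1 library left out (221 without knockout 1 and 49 without knockout 2). The replicate block gave 69. Same-numbered libraries deviated in opposite ways (correlation -0.306 across genes), so the numbers are not known to pair the samples, and the crossed pairing, added after the data were seen, gave 848 calls over all genes and 0 among the members, with 3 higher and 9 lower at an unadjusted p under 0.05 and a lowest member adjusted p of 0.0616. The members' median log2 fold change was -0.106 to -0.055 with 1 library left out, the latter without wild type 1. Members lower in both knockout libraries numbered 12 with limma-voom (25.4% of all genes were lower) and 14 after quantile normalization (27.8% were). Without a filter they numbered 14 (19.3%). Members higher numbered 4, 3 and 4 under these settings (22.8%, 21.3% and 22.4% of all genes). Members higher in all knockout libraries numbered 5 to 10 with 1 library left out (10 without knockout 2 and 7 without wild type 2), and members lower 15 to 20 (20 without knockout 1); fewer libraries overlap less by construction, and the shares of all genes then ran from 32.3% to 39.1% and from 35.7% to 42.3%. Among 26 named members, 331 values kept their sign and 6 did not: Srebf1 (0.008 without wild type 2 and 0.009 without knockout 2, range -0.186 to 0.009), Scd1 (-0.08 without knockout 1, range -0.08 to 0.328), Mvk (-0.006 without knockout 1, range -0.006 to 0.293) and Acss2 (-0.058 without wild type 2 and -0.068 without knockout 2, range -0.068 to 0.379). The replicate block, the crossed pairing, the trend option and the filters leave a fold change as it is, so no sign could change there. The cause of the changes of sign was not tested. Leaving out a library makes the lone one vary like the other group by assumption. Depth limits low members most: Hsd17b7 rests on 81 reads in knockout 1.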

Other observations

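Gene lengths behind the FPKM values often matched an average over transcripts. Of 11931 genes with more than 1 annotated transcript and at least 100 reads over the 4 libraries, the recovered length lay within 1 base of the mean annotated transcript length for 5563 (46.6%) and within 1 base of the longest transcript for 395 (3.3%). Among the members, 13 of 33 lay within 1 base of the mean, such as Acly, with 2383 bases against a longest transcript of 4426, and Srebf1, with 1466 against 4299. For genes annotated with many short transcripts the deposited FPKM is then higher than one based on the longest transcript, by 2.93 times for Srebf1.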
